A study of Mus musculus with 19 samples.

Results

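The subject here is the part of the expression profile of tumours labelled double knockout that exceeds or falls short of the sum of the single knockouts. It was computed for each gene as the mean log2 level of the 6 labelled double knockouts, minus the mean of the 4 Itgb1 knockouts, minus the mean of the 4 Itgb3 knockouts, plus the mean of the 5 controls. This quantity is called the interaction below, and it is 0 where the labelled double knockouts lie at the level that the summed differences of the single knockouts give, called the additive expectation. All 19 tumours of the series entered it, and 14231 of the 22180 genes with a probe set of 1 gene symbol were measured above a low limit and tested.

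The tumours came from MMTV-NIC mice, in which the mammary tumour virus promoter drives an activated ErbB2 receptor together with Cre recombinase. The 5 controls were NIC WT, with both integrin genes intact. The 4 Itgb1 knockouts carried itgb1 fl/fl (beta 1 integrin KO), the 4 Itgb3 knockouts itgb3 fl/fl (beta 3 integrin KO), and the 6 labelled double knockouts both floxed genes (beta 1/3 integrin DKO). All groups share the ErbB2 and Cre transgene, and Cre deletes the floxed genes only in cells where the promoter is active. RNA came from flash frozen end-burden tumours, so each profile also holds stroma, vessels and immune cells. In such bulk samples fewer cells of a type and less RNA per cell cannot be told apart. The labels used here give neither age nor strain. Separate animals are not stated for the tumours, and p-values cover only the spread of these tumours, part of which may be technical.

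Integrins are pairs of an alpha and a beta subunit that bind extracellular matrix and signal through focal adhesions. Itgb1 encodes the beta subunit of most receptors for collagen, laminin and fibronectin, and Itgb3 encodes that of receptors for vitronectin and other ligands with the RGD motif. Since both families use the same talin, kindlin and kinase machinery, one can stand in for the other in some cells, which is the setting in which a double deletion is compared with the sum of single ones.

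Of the epithelial markers Krt8, Krt18, Epcam, Cdh1 and Erbb2, the mean level lay between the 95.4th and 99.2nd percentile of all tested genes, whereas Krt19 lay at the 19.3rd percentile, with log2 levels of 4.30 to 5.69. The median over the tested genes was 6.49 to 6.58 on control arrays, 6.46 to 6.60 in Itgb1 knockouts, 6.45 to 6.52 in Itgb3 knockouts and 6.58 to 6.63 in labelled double knockouts. The median over the whole table ran the other way, at 4.32 to 4.34 in the labelled double knockouts and 4.41 to 4.48 in the Itgb3 knockouts. When the table medians of the arrays were set equal, the median interaction of all genes moved from 0.01 to 0.11, and 64.5% of the genes lay above 0 in place of 50.8%. Quantile normalization left it at 0.01.

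The targeted genes bear on what the label means. Itgb1 was 10.16 ± 0.19 (SD, n = 5) in controls, 8.70 ± 0.29 (n = 4) in Itgb1 knockouts, 10.04 ± 0.20 (n = 4) in Itgb3 knockouts and 8.32 ± 0.48 (n = 6) in labelled double knockouts. Its additive expectation was 8.58, and the interaction of -0.26 (SE 0.294) did not pass (limma adjusted p = 0.742). Labelled double knockout replicate 5 had Itgb1 at 9.20, above the 4 Itgb1 knockouts (8.39, 8.52, 8.98 and 8.91), while the other 5 ran from 7.93 to 8.50. Without this tumour the interaction of Itgb1 was -0.44, 1 gene passed for the interaction, and 125 genes in place of 55 differed between labelled double knockouts and controls. Itgb3 levels were 8.09, 8.23, 7.72, 8.16 and 8.41 in the controls and 8.15, 8.98, 7.92 and 7.90 in the Itgb1 knockouts. They were 6.34, 7.31, 6.97 and 7.40 in the Itgb3 knockouts, and ran from 7.69 to 8.55 with a median of 8.20 in the labelled double knockouts. The libraries labelled double knockout thus lay at the control level of Itgb3, above every Itgb3 knockout and above the additive expectation of 7.12, so the label goes against this transcript and every direction below is one of the labelled group. The interaction of Itgb3 was 1.01 (SE 0.352), which did not pass (limma adjusted p = 0.271). Whether the probe set covers the deleted exons is not stated, and in bulk tumours Itgb3 of stromal cells is counted too. Erbb2, the driving receptor, had an interaction of 0.29 (SE 0.265, limma adjusted p = 0.675), which was 0.11 without Itgb1 knockout replicate 4.

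No single gene passed for the interaction. In limma's test with Benjamini-Hochberg adjustment over 14231 genes and a threshold of 0.05, 0 genes (0%) lay above and 0 (0%) below the additive expectation. The smallest adjusted p was 0.0963, shared by 19 genes. At an unadjusted p under 0.05 there were 1777 genes, or 12.5%, of which 1071 lay above 0 and 706 below. The median interaction was 0.01, with the 5th and 95th percentiles of the genes at -0.53 and 0.64. The interaction combines 4 group means, so its median SE was 0.223, against 0.145 for the difference of labelled double knockouts and controls. With array weights in limma Nlgn2, Tnfrsf1b and Lhx2 passed (smallest adjusted p = 0.0467), and leaving out 1 tumour gave 0 to 5 genes.

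The 3 differences that make up the interaction gave few calls in the same fit. Against control, 42 genes (0.295%) were higher and 13 (0.0913%) lower in the labelled double knockouts, 0 (0%) higher and 1 (0.00703%) lower in the Itgb1 knockouts, and 0 (0%) in either direction in the Itgb3 knockouts. At an unadjusted p under 0.05 these comparisons held 2398, 691 and 874 genes in limma. By label, the same data also compare the floxed Itgb1 gene on each Itgb3 genotype. With both genes floxed against Itgb3 floxed alone, 338 genes (2.38%) were higher and 70 (0.492%) lower. Itgb3 was itself among the higher genes, by 1.13 (limma adjusted p = 0.0223), so these groups do not share a measured Itgb3 level and the 408 genes cannot be assigned to Itgb1. With Itgb3 intact the Itgb1 knockouts differed from control in 1 gene, Itgb1 itself. Seen the other way, 2 genes (0.0141%) were higher and 1 (0.00703%) lower in labelled double knockouts than in Itgb1 knockouts. These counts share arrays and come from groups of 4 to 6, and the test of the difference between them is the interaction itself, in which 0 genes passed. With fibroblast and adipocyte marker levels as covariates the 408 genes between labelled double knockouts and Itgb3 knockouts became 20, and with array medians set equal 1220. Leaving out 1 tumour gave counts of 56 to 459 in place of 408, and of 14 to 125 in place of the 55 against control.

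The leading genes are described next. They are the 12 above and the 12 below 0 with the smallest p that carry a gene name, and because that p chose them, their values are a description. In each of the 24 all 6 labelled double knockouts lay on the same side of the additive expectation. The plot of levels by tumour shows 8 of them.

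**Figure D1:**
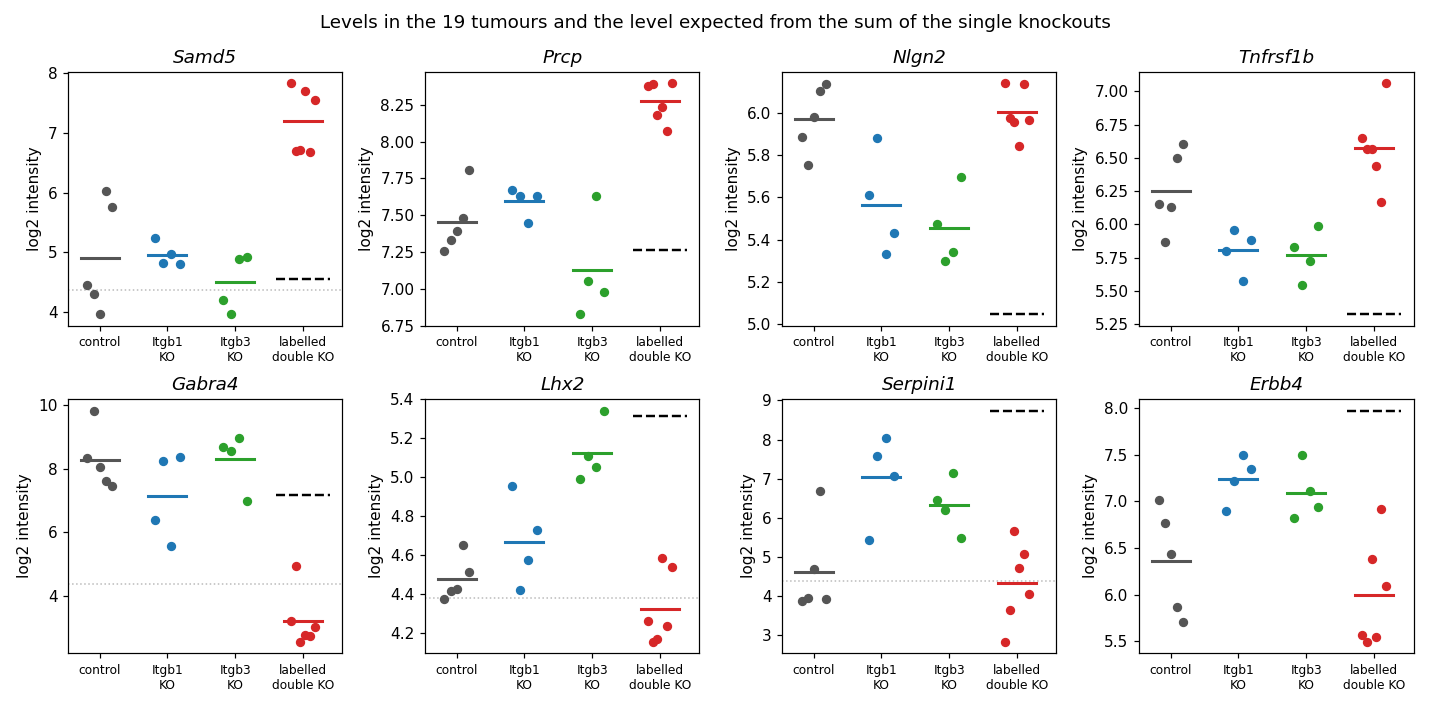
Each point is the deposited log2 intensity of 1 tumour, the solid bars are group means (n = 5, 4, 4 and 6), the dashed black bar is the additive expectation for the labelled double knockouts and the dotted grey line is the filter value of 4.38. All 6 labelled double knockouts lie above the dashed bar for Samd5, Prcp, Nlgn2 and Tnfrsf1b and below it for Gabra4, Lhx2, Serpini1 and Erbb4. These genes were chosen by the p of the interaction, which makes such a position likely.

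Among genes above the additive expectation, Samd5 and Prcp rose in the labelled double knockouts themselves. Samd5 is named for the sterile alpha motif of its protein. Its levels were 4.46, 4.30, 3.97, 6.02 and 5.76 in the controls, 5.23, 4.82, 4.97 and 4.81 in the Itgb1 knockouts and 4.21, 3.97, 4.89 and 4.92 in the Itgb3 knockouts. In the labelled double knockouts Samd5 ran from 6.69 to 7.82 with a median of 7.13. All 6 labelled double knockouts were above the other 13 tumours, of which 4 arrays lay under the filter value. Its interaction was 2.64 (SE 0.524, 6.24-fold, limma adjusted p = 0.0963), and its difference from control was 2.29 (limma adjusted p = 0.00607).

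Prcp, a lysosomal carboxypeptidase that trims angiotensin and other peptides, had the same arrangement on a smaller scale. It was 7.26, 7.33, 7.39, 7.48 and 7.80 in the controls, 7.67, 7.63, 7.44 and 7.63 in the Itgb1 knockouts and 6.83, 7.06, 7.63 and 6.98 in the Itgb3 knockouts. The labelled double knockouts ran from 8.07 to 8.40 with a median of 8.30, again above the other 13 tumours. The interaction of Prcp was 1.01 (SE 0.201, limma adjusted p = 0.0963), made of 0.82 against control in the labelled double knockouts, 0.14 in the Itgb1 knockouts and -0.33 in the Itgb3 knockouts. Without Itgb3 knockout replicate 3, the highest of its group, Prcp reached 1.18 and passed (limma adjusted p = 0.025).

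In other genes the labelled double knockouts lay near the controls while both single knockouts lay lower. Nlgn2, a neuroligin known as an adhesion protein of inhibitory synapses, was 5.88, 5.75, 5.98, 6.10 and 6.14 in the controls. It was 5.61, 5.88, 5.33 and 5.43 in the Itgb1 knockouts and 5.48, 5.30, 5.34 and 5.70 in the Itgb3 knockouts, so 7 of the 8 single knockouts lay below the lowest control. The labelled double knockouts ran from 5.84 to 6.14 with a median of 5.97 and overlapped the controls. The interaction of 0.95 (SE 0.171, limma adjusted p = 0.0963) was therefore made of -0.41 and -0.52 in the single knockouts against 0.03 in the labelled double knockouts.

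Tnfrsf1b, a receptor for tumour necrosis factor carried by immune and endothelial cells, followed the same form. Its levels were 6.16, 5.87, 6.13, 6.50 and 6.61 in controls, 5.80, 5.96, 5.58 and 5.89 in Itgb1 knockouts and 5.83, 5.54, 5.73 and 5.99 in Itgb3 knockouts. In the labelled double knockouts Tnfrsf1b ran from 6.17 to 7.06 with a median of 6.56, above all 8 single knockouts and overlapping the controls. The interaction was 1.25 (SE 0.232, 2.38-fold, limma adjusted p = 0.0963). In the same fit Plec, which encodes plectin and ties intermediate filaments to hemidesmosomes, had an interaction of 0.77 (SE 0.151), with means of 6.93 in controls, 6.73 in Itgb1 knockouts, 6.58 in Itgb3 knockouts and 7.15 in labelled double knockouts.

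The other 7 genes above 0 had interactions of 0.60 to 1.19, each with a limma adjusted p of 0.0963. They were Heatr5a (1.02) and Heatr5b (0.60), a pair of related HEAT-repeat proteins of endosomal traffic, Usp36 (0.78), a nucleolar deubiquitinase, and Ppp2r5d (0.66), a regulatory subunit of protein phosphatase 2A. The others were Unk (0.82), an RNA-binding zinc finger protein, Cep170b (0.86), a relative of a centrosomal protein, and Mtss2 (1.19), which binds curved membrane. Usp36 was the one of these 7 in which all 6 labelled double knockouts exceeded the other 13 tumours, at 7.10 to 7.34 against 6.41 to 7.04. Heatr5b and Ppp2r5d differed from control by 0.09 and 0.07 in the labelled double knockouts, so their interaction lay almost wholly in the single knockouts.

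Below the additive expectation, Gabra4 was the gene whose interaction lay in the labelled double knockouts. It encodes the alpha 4 subunit of the GABA-A receptor. Its levels were 8.36, 9.83, 8.05, 7.61 and 7.47 in controls, 6.37, 8.25, 5.57 and 8.37 in Itgb1 knockouts and 8.69, 8.56, 8.96 and 6.98 in Itgb3 knockouts. The labelled double knockouts ran from 2.56 to 4.94 with a median of 2.90, below the other 13 tumours, and 5 of the 6 lay under the filter value, so the size of the difference is uncertain at its low end. Gabra4 fell by 5.06 against control (limma adjusted p = 0.000194). The interaction was -3.97 (SE 0.856, limma adjusted p = 0.108), smaller than that fall since the Itgb1 knockouts averaged -1.12 against control. On linear intensities neither passed, with adjusted p values in limma of 0.704 for the interaction and 0.114 for the difference from control. With values under the filter raised to it, the interaction of Gabra4 was -2.70.

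Serpini1, which encodes the protease inhibitor neuroserpin, had the lowest interaction of the 24 genes. It was 3.87, 3.94, 4.68, 6.67 and 3.91 in the controls, 5.43, 7.59, 8.04 and 7.07 in the Itgb1 knockouts and 6.45, 6.20, 7.15 and 5.49 in the Itgb3 knockouts. The labelled double knockouts ran from 2.83 to 5.66 with a median of 4.38, overlapping the controls. Both single knockouts thus averaged higher, by 2.42 and 1.71, and the labelled double knockouts by -0.29. The interaction of Serpini1 was -4.41 (SE 0.873, 21.3-fold, limma adjusted p = 0.0963), of which the largest piece was the Itgb1 knockout. Of the 19 arrays, 6 lay under the filter value for Serpini1.

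Erbb4, a relative of ErbB2 that acts in milk-producing differentiation, showed the same order. Its levels were 7.02, 6.77, 6.43, 5.87 and 5.71 in controls, 6.90, 7.22, 7.49 and 7.34 in Itgb1 knockouts and 6.82, 7.50, 7.11 and 6.94 in Itgb3 knockouts. In the labelled double knockouts Erbb4 ran from 5.50 to 6.91 with a median of 5.83, so that 1 of the 6 reached the single knockouts. The interaction was -1.97 (SE 0.406, 3.92-fold, limma adjusted p = 0.0963).

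Lhx2, a LIM homeodomain transcription factor, had 4.38, 4.41, 4.43, 4.65 and 4.51 in the controls and 4.96, 4.42, 4.57 and 4.73 in the Itgb1 knockouts. It was 4.99, 5.11, 5.05 and 5.34 in the Itgb3 knockouts, above the other 15 tumours, and 4.16 to 4.58 with a median of 4.25 in the labelled double knockouts. The interaction of Lhx2 was -0.99 (SE 0.174, limma adjusted p = 0.0963). These levels lie at the filter value of 4.38, with 5 of 19 arrays under it.

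The other 8 genes below 0 had interactions of -1.06 to -0.62 and limma adjusted p values of 0.101 to 0.173. Id2, an inhibitor of basic helix-loop-helix factors needed for milk-producing alveoli, had -0.78, with 11.18 in both single knockouts, 10.86 in controls and 10.71 in labelled double knockouts. Psma7 (-0.69), a subunit of the proteasome core, and Tram1 (-0.80), a protein of the secretory translocon, were abundant transcripts. Nxph3 (-0.75) is a ligand of neurexins, Atoh7 (-0.82) a factor of retinal neurons, Cdkal1 (-0.62) a tRNA-modifying enzyme, Pibf1 (-1.06) a centrosomal protein and Ccdc153 (-0.74) a coiled-coil protein. In these 8 genes the labelled double knockouts differed from control by -0.20 to 0.09, while both single knockouts averaged above it.

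**Figure D2:**
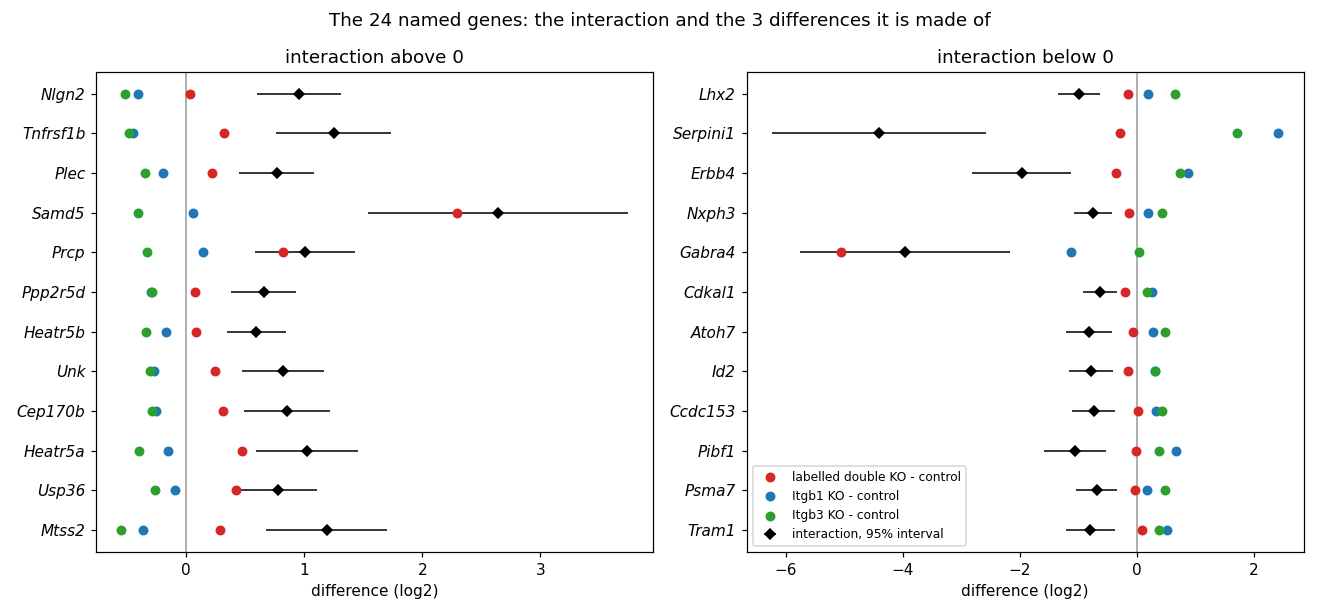
For each of the 24 genes the diamond is the interaction with its 95% interval (log2, horizontal axis) and the coloured points are the 3 differences from control that make it up. In most genes the green and blue points (single knockouts) lie on 1 side of 0 and the red point (labelled double knockout) near 0 or on the other side, with Samd5, Prcp and Gabra4 the genes whose red point is a called difference.

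The make-up of the interaction differed between its directions. Each gene's interaction has 3 parts, the labelled double knockout against control and the 2 single knockouts with their sign turned, and the leading part is the largest that shares the interaction's sign. Among all 14231 genes the labelled double knockout led in 39.2%, the Itgb3 knockout in 32.5% and the Itgb1 knockout in 28.3%. Among the 1071 genes above 0 at an unadjusted p under 0.05 the labelled double knockout led in 513 (47.9%), and among the 706 below 0 in 147 (20.8%). The single knockouts together outweighed it in 655 (61.2%) of the former and in 600 (85.0%) of the latter, against 59.6% of all genes. The control mean enters all 3 parts, with the same sign in both single knockout parts, and the groups hold 5, 4, 4 and 6 tumours. The part of shared and unequal error in these shares was not tested. Of the 12 genes named above 0 and the 12 below, 5 and 1 were led by the labelled double knockout, 6 and 6 by the Itgb3 knockout and 1 and 5 by the Itgb1 knockout.

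Gene groups were described with 38 lists, 34 of which had at least 5 measured genes. No list held a gene that passed for the interaction (0%), so each is given by counts and medians beside the median of 0.01 over all genes. Among all 14231 genes 50.8% lay above 0. At an unadjusted p under 0.05, 1071 of them (7.53%) lay above and 706 below 0, and the counts of each list are to be read beside these. The median lay above 0 in 26 lists and below in 8. Interstitial matrix, pericyte and smooth muscle, basement membrane and macrophage genes had the highest medians, and milk protein and interferon genes the lowest.

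**Figure D3:**
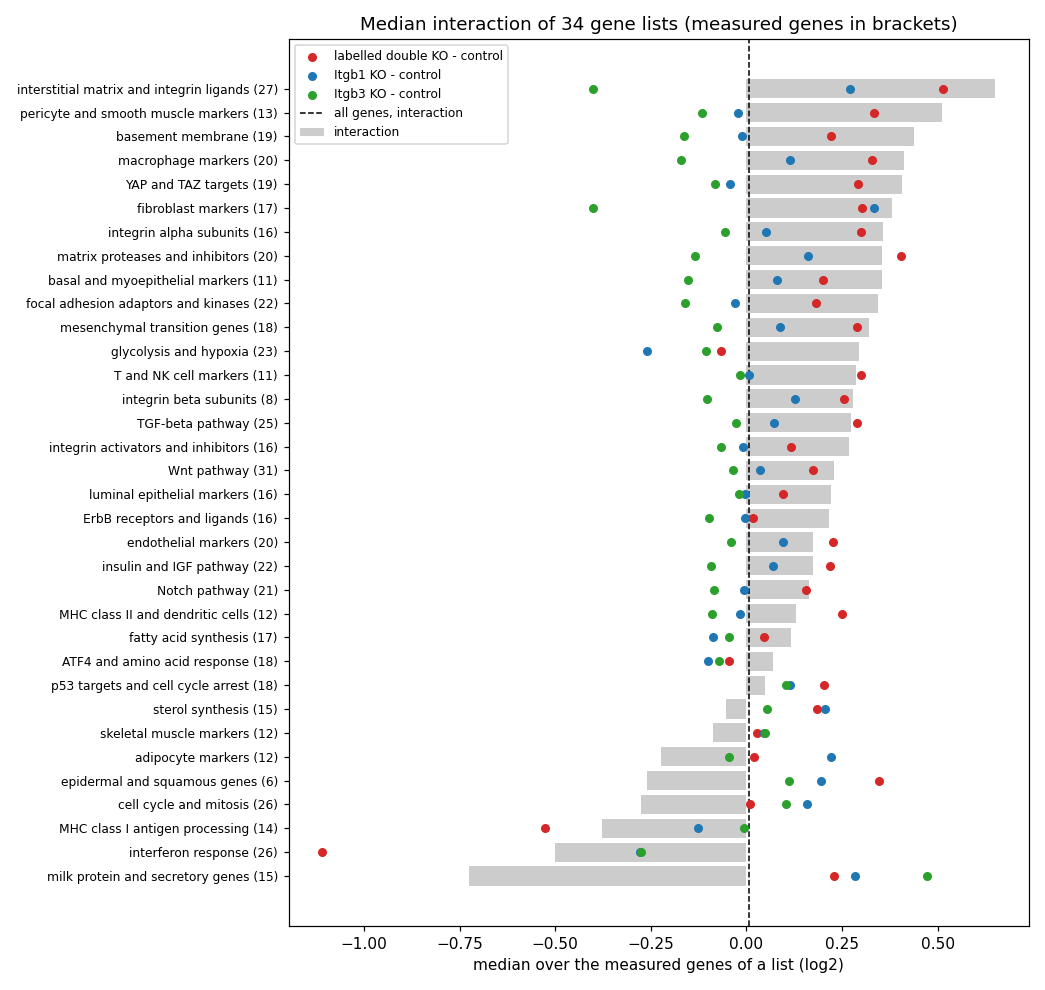
Grey bars are the median interaction (log2) of each of 34 lists, with the number of measured genes in brackets, and points are the median differences from control of its 3 parts. The dashed line is the median of all genes, and the bars run from -0.72 for milk protein genes to 0.65 for interstitial matrix genes.

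Among integrin genes, 12 of 16 alpha subunits lay above 0, with a median interaction of 0.36, and 6 of 8 beta subunits, with a median of 0.28. An unadjusted p under 0.05 was reached by 4 and 2 of them, against 7.53% of all genes in that direction. The 2 beta subunits are Itgb4 and Itgb3 itself, which lay at the control level in the labelled double knockouts, so this count includes a targeted gene. The median of the beta subunits includes both targeted genes, Itgb1 (interaction -0.26) and Itgb3 (1.01). Itgb4, the partner of the alpha 6 subunit in hemidesmosomes, was 7.74, 7.41, 7.86, 8.04 and 8.21 in controls, 8.17, 7.74, 8.05 and 7.82 in Itgb1 knockouts and 7.77, 7.75, 7.70 and 7.63 in Itgb3 knockouts. In the labelled double knockouts Itgb4 ran from 7.92 to 9.31 with a median of 8.86, and 5 of the 6 exceeded the other 13 tumours. Its interaction was 0.96 (SE 0.304, limma adjusted p = 0.237). Its rise against control, 0.91 (limma adjusted p = 0.0499), kept its call in 2 of the 19 omissions of 1 tumour.

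Itga2, the alpha subunit of a collagen receptor, rose by 0.93 against control in the labelled double knockouts (limma adjusted p = 0.0279), with 0.36 in the Itgb1 knockouts and 0.00 in the Itgb3 knockouts. The call was kept in 15 of the 19 omissions of 1 tumour, and its limma adjusted p reached 0.0615 on linear intensities and also missed the threshold with covariates. Its interaction was 0.57 (SE 0.269, 95% interval 0.00 to 1.13, limma adjusted p = 0.397). Itga3, the alpha subunit of a laminin receptor, had an interaction of 0.95 with 0.14 in the labelled double knockouts and -0.55 in the Itgb3 knockouts. Itgax and Itgam, leukocyte subunits, had 0.96 and 0.81, and the beta subunits Itgb5 and Itgb2 had 0.39 and 0.35, all with limma adjusted p values of 0.269 to 0.593. Without labelled double knockout replicate 2 the median of the beta subunits was 0.18.

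Of the proteins that switch integrins on and off, 12 of 16 genes lay above 0, with a median of 0.27, which became 0.15 without control replicate 4. Flna, the actin crosslinker filamin A that competes with talin, had an interaction of 1.14, Tns1 0.66, Tln1 0.57 and Fermt3, the blood cell kindlin, 0.50 (limma adjusted p = 0.330 to 0.378). Focal adhesion adaptors and kinases had 19 of 22 genes above 0, a median of 0.34, and 9 genes above and 1 below 0 at an unadjusted p under 0.05. Their medians were 0.18 in the labelled double knockouts, -0.03 in the Itgb1 knockouts and -0.16 in the Itgb3 knockouts.

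Basement membrane genes had 16 of 19 above 0 and a median interaction of 0.44, with 7 at an unadjusted p under 0.05. Lamb1, the beta 1 chain of laminins, was among the 19 genes at the smallest adjusted p, and was left out of the 12 by its rank. It was 6.41, 7.02, 6.17, 6.89 and 6.51 in the controls, 6.58, 6.07, 6.20 and 6.31 in the Itgb1 knockouts, 6.30, 5.55, 5.97 and 6.23 in the Itgb3 knockouts and 6.72 to 7.10 with a median of 6.83 in the labelled double knockouts. The labelled double knockouts exceeded all 8 single knockouts and overlapped the controls in Lamb1. Its interaction was 1.17 (SE 0.244, 2.25-fold, limma adjusted p = 0.0963). Col4a2, a chain of network-forming collagen, had 1.12, Hspg2, the proteoglycan perlecan, 0.83, and Nid2, the nidogen that links both networks, 0.75, with limma adjusted p values of 0.173, 0.195 and 0.237.

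Interstitial matrix genes and integrin ligands had the highest median, 0.65, with 23 of 27 above 0. Its parts were 0.51 in the labelled double knockouts, 0.27 in the Itgb1 knockouts and -0.40 in the Itgb3 knockouts. Tnc, the matrix glycoprotein tenascin C, had an interaction of 1.69, Col12a1 1.33, Col6a3 0.75 and Col15a1 0.68 (limma adjusted p = 0.301 to 0.379). Tnc ran from 4.95 to 8.14 within the labelled double knockouts, a wider range than the difference itself. Without Itgb3 knockout replicate 2, in which Col12a1 was 5.24 against 6.43 to 7.06 in its group, the median of the list was 0.30.

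Markers of stromal cells did not lie on 1 side. The 17 fibroblast markers, several of them matrix genes too, had a median interaction of 0.38, with 12 above 0. Their median level relative to the control mean was -0.30 to 0.49 in single controls, 0.00 to 0.57 in Itgb1 knockouts, -0.90 to 0.37 in Itgb3 knockouts and -0.41 to 0.92 in labelled double knockouts, so the groups overlapped. All 13 pericyte and smooth muscle markers lay above 0, against 50.8% of all genes, with a median of 0.51. Of these markers 4 had an unadjusted p under 0.05, against 7.53% of all genes in that direction. Kcnj8, a potassium channel of pericytes, had an interaction of 1.23, Mylk, the smooth muscle myosin kinase, 0.60, Pdgfrb, the receptor of pericytes for platelet-derived growth factor, 0.57 and Notch3 0.51, with limma adjusted p values of 0.301 to 0.333. Endothelial markers had a median of 0.17, with 18 of 20 above 0, and adipocyte markers one of -0.22, with 9 of 12 below. The part of these cell types in the matrix and adhesion lists was not tested.

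Macrophage markers had 18 of 20 above 0 and a median of 0.41. Cd14, a receptor for bacterial lipopolysaccharide, was higher in the 6 labelled double knockouts than in the other 13 tumours, at 8.47 to 9.36 against 6.67 to 8.12. Cd14 rose by 1.59 against control (limma adjusted p = 0.00514), with 0.21 and 0.40 in the single knockouts, and its interaction of 0.98 (SE 0.353) did not pass (limma adjusted p = 0.288). Adgre1, the macrophage surface protein F4/80, had an interaction of 0.80, Csf1r 0.81 and Itgam 0.81. Wnt5a, a secreted Wnt ligand, likewise rose by 1.10 against control (limma adjusted p = 0.00940) while its interaction was 0.68 (SE 0.273, limma adjusted p = 0.316). For Wnt5a 4 of the 19 arrays, 3 of them controls, lay under the filter value, so the size of its rise is uncertain. Jag1, a Notch ligand chosen after its values were seen, rose by 0.96 against control (limma adjusted p = 0.0499) and had an interaction of 1.26 (limma adjusted p = 0.148). Whether the call of Jag1 holds with a tumour left out was not examined.

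Milk protein and secretory genes had the lowest median, -0.72, with 12 of 15 below 0. At an unadjusted p under 0.05, 5 lay below and 2 above 0. Their medians were above 0 in each difference from control, 0.23 in the labelled double knockouts, 0.28 in the Itgb1 knockouts and 0.47 in the Itgb3 knockouts. By the list median the labelled double knockouts thus fell short of a sum and were not below the controls. Single members differed, and in the labelled double knockouts Thrsp and Lao1 averaged -0.32 and -0.39 against control, Csn1s2a and Csn1s1 0.51 and 0.24. Csn1s2a, a casein, was 5.97, 5.11, 5.30, 4.94 and 5.79 in controls, 4.63, 6.89, 7.21 and 6.68 in Itgb1 knockouts and 9.28, 7.37, 7.58 and 7.56 in Itgb3 knockouts. The labelled double knockouts ran from 3.88 to 7.88 with a median of 5.44, spanning the controls and reaching the Itgb3 knockouts. Its interaction was -2.95 (SE 0.970, limma adjusted p = 0.253). Thrsp, which promotes fatty acid synthesis in the lactating gland, had -2.67, Lao1, an amino acid oxidase of milk, -2.42 and Csn1s1 -2.33, with limma adjusted p values of 0.213 to 0.299. Of the 19 arrays, 5 lay under the filter value for Lao1 and 6 for Csn1s1, so the sizes of their differences are uncertain. Without Itgb3 knockout replicate 2 the interaction of Lao1 was -1.695.

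Interferon response genes had 24 of 26 below 0 and a median of -0.50. The median difference from control was -1.11 in the labelled double knockouts and -0.28 in each single knockout. The single knockouts thus lay on the same side of control, and their sum brings the additive expectation closer to the labelled double knockouts. Rtp4, an interferon-induced chaperone, ran from 7.18 to 9.70 in the labelled double knockouts with a median of 8.43, and was 9.78, 11.09, 10.78, 10.31 and 10.49 in controls, 9.19, 10.91, 10.33 and 10.20 in Itgb1 knockouts and 10.51, 10.63, 10.30 and 9.38 in Itgb3 knockouts. Rtp4 fell by 1.99 against control (limma adjusted p = 0.0499). Xaf1, a proapoptotic interferon target chosen after its values were seen, fell by 1.91 (limma adjusted p = 0.0499). The call of Rtp4 was kept in 5 of the 19 omissions of 1 tumour, and that of Xaf1 was not examined in them. The interactions of Rtp4 (-1.37), Oas2 (-1.46), a sensor of double-stranded RNA, Mx2 (-1.21), an antiviral GTPase, and Ifih1 (-0.95), another RNA sensor, had limma adjusted p values of 0.386 to 0.582. Oas2 ranged over 5.57 to 8.78 in controls, 5.70 to 8.86 in Itgb1 knockouts and 5.17 to 8.74 in Itgb3 knockouts, and over 5.17 to 6.47 in labelled double knockouts.

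The list median depended on single tumours in these genes. Leaving out control replicate 1 gave -0.28. Leaving out Itgb1 knockout replicates 1 and 2 in turn gave -0.78 and -0.24, and Itgb3 knockout replicates 2 and 4 gave -0.31 and -0.82. MHC class I antigen processing genes, many of them interferon targets, had 13 of 14 below 0, a median interaction of -0.38 and medians of -0.53, -0.13 and -0.01 in the labelled double, Itgb1 and Itgb3 knockouts. Cell cycle and mitosis genes had 22 of 26 below 0 and a median of -0.28, with 0.01, 0.16 and 0.10.

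The promoters of the interferon genes show the sequence through which many of them are switched on, the interferon-stimulated response element, searched here as GAAANNGAAA on both strands. RefSeq promoters (GRCm38.p6, 250 bases before to 50 after each start) were found for 18 of the 26 measured genes, and 10 of them (55.6%) held it, against 398 of 11097 tested genes (3.59%). Not all of these 10 genes were considered for printing. Among the genes considered, with sites that end before the start, the 3 with the smallest interaction p were taken. Their windows are printed 5′ to 3′ on the gene's strand, with the motif in capitals. Rsad2 at chr12:26456538-26456597 (minus strand), Isg15 at chr4:156200850-156200909 (minus strand) and Ifit1 at chr19:34640760-34640819 (plus strand) read:
Rsad2: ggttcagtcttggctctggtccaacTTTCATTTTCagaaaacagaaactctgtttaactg
Isg15: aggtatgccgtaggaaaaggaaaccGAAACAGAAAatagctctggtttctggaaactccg
Ifit1: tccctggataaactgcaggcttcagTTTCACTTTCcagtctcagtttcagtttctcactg
Isg15 and Ifit1 hold further matches beside these, some of them overlapping. The interactions of these genes were -0.69, -0.88 and -1.18 and did not pass. The motif is a description of the sequence and says nothing of binding in these tumours.

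The position of the genes along the chromosomes was examined because earlier results had put forward the end of chromosome 11, where Itgb3 lies. The 225 tested genes from Itgb3 to the chromosome end had a median interaction of 0.25, with 179 (79.6%) above 0. Of these genes 65 (28.9%) had an unadjusted p under 0.05 above 0, against 7.53% of all genes, and 3 below. The 949 genes before Itgb3 on the same chromosome had a median of 0.04. The distal genes differed from control by a median of 0.26 in labelled double knockouts, 0.04 in Itgb1 knockouts and -0.03 in Itgb3 knockouts. A rise in the labelled double knockouts was not particular to this region. Over the 806 genes of chromosome 1 the same medians were 0.21, 0.10 and 0.11. The distal genes are described further. The distal genes held 12 of the 42 genes that were called higher in labelled double knockouts, and make up 1.58% of all genes tested. The genes before Itgb3 held 0, where few calls would be found at the share of 0.295% over all genes tested.

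Each tumour's median over the distal genes, relative to the control mean, was -0.06, 0.05, 0.03, -0.02 and 0.02 in controls, 0.15, -0.11, 0.02 and 0.02 in Itgb1 knockouts and -0.04, 0.00, 0.01 and -0.03 in Itgb3 knockouts. It was 0.34, 0.40, 0.18, 0.30, 0.11 and 0.17 in the labelled double knockouts. All 6 exceeded the controls and the Itgb3 knockouts, and labelled double knockout replicate 5, at 0.11, lay below Itgb1 knockout replicate 1, at 0.15. Over the genes before Itgb3 the labelled double knockouts ran from -0.13 to 0.03. By label both the Itgb3 knockouts and the labelled double knockouts carry the floxed Itgb3 gene. What sets the distal level in either group was not tested.

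**Figure D4:**
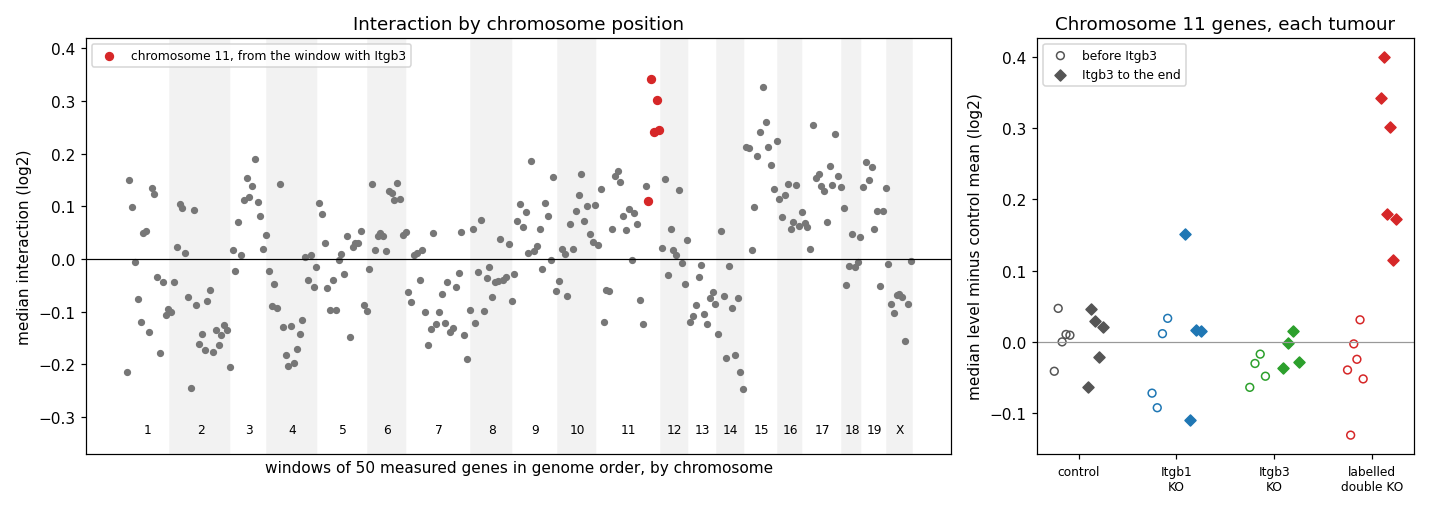
Left, the median interaction (log2) in windows of 50 genes in genome order, with chromosomes in alternating shade. Red marks the chromosome 11 windows from the one that holds Itgb3 onward, and that first red window holds mostly genes before Itgb3. Windows of fewer than 25 genes were left out, so the last genes of chromosome 11 are not shown. Of the 10 highest windows 4 lie on chromosome 11. Right, each tumour's median over the genes before Itgb3 (open circles) and from Itgb3 on (diamonds) relative to the control mean, where the labelled double knockouts lie between 0.11 and 0.40 in the distal genes.

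Of the distal genes, Prkca, the classical protein kinase C alpha, had an interaction of 1.59 (SE 0.340, limma adjusted p = 0.107) and rose by 1.23 against control in the labelled double knockouts (limma adjusted p = 0.0201). Rptor, the scaffold of mTORC1, had an interaction of 0.78 (SE 0.166, limma adjusted p = 0.102) and rose by 0.58 against control (limma adjusted p = 0.0235). Ttyh2, a membrane protein, had 1.81 and Pitpnc1, a phosphatidylinositol transfer protein, 0.85, and Unk and Usp36 also lie here. Among the 100 genes with the smallest interaction p, 14 were distal genes of chromosome 11, which hold 1.58% of all genes tested. The distal region was not the one place with such medians. Of 282 windows of 50 genes, with medians from -0.25 to 0.34, the 10 highest lay on chromosomes 11 (4), 15 (4) and 17 (2), and over whole chromosomes the median was highest on chromosome 15, at 0.20, and lowest on chromosome 14, at -0.10.

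The interaction also varied with the level of a gene. With the tested genes split into 5 equal groups from the lowest to the highest mean level, its median was -0.11, 0.01, 0.08, 0.06 and 0.03. In the lowest group, with mean levels of 3.47 to 4.98, the Itgb3 knockouts averaged higher than control, with a median of 0.07, and in the third and the fourth group they averaged lower, at -0.05 in each. Lhx2 lies in the lowest group, and Serpini1 and Gabra4 are above it on their mean over 19 arrays.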

How the data were processed

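RNA of 19 tumours was hybridised to Affymetrix whole-transcript arrays. The deposited values are log2 intensities of 41345 probe sets, normalized by the authors with Affymetrix Expression Console, per the submitters' processing notes, with background correction and summarization not given in the sources used here. They were used as deposited, and precision rests on how many arrays each group has. Probe sets with 1 symbol (23521, with 1814 naming several and 16010 none) were kept where at least 4 arrays reached the median of the table (4.38). The set with the highest mean stood for its gene. All 19 arrays entered 1 limma 3.58.1 fit (lmFit and eBayes, R 4.3.3) with 4 group means and no covariates (18.7 degrees of freedom). Two-sided p-values were adjusted by Benjamini and Hochberg's method over 14231 genes. The fit was tested on simulated data. Named genes are the 12 with the smallest p in each direction, excluding predicted genes, clones, small RNAs and receptor families, with Itgb1, Itgb3, Erbb2, Gabra4, Samd5, Cd14, Wnt5a, Itga2 and Itgb4, and up to 4 members of 6 lists and of the integrin lists. Members and lists were chosen with earlier results of these data known, and genes of distal chromosome 11 after their values were seen. Gene order came from the GRCm38.p6 table, which held 14152 of the genes. Alternatives were 2 normalizations, 3 intensity filters, eBayes with trend, array weights, covariates, linear intensities, every probe set, and leaving out each tumour.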

Additional observations from a re-analysis of the deposited data

Results flagged for a closer look

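Over the 62 named genes, 248 groups of tumours were searched for a tumour that stood apart from its group, and 14 were found. Chance marks about 1 in 20 groups. Serpini1 was 6.67 in control replicate 4, with the next control at 4.68. Gabra4 was 4.94 in labelled double knockout replicate 2, the highest of its group. Flna was 7.24 in labelled double knockout replicate 6, and Atoh7 was 4.48 in labelled double knockout replicate 3, each the lowest of its group. Csn1s2a was 9.28 in Itgb3 knockout replicate 1. In Itgb3 knockout replicate 2, Atoh7 was high at 5.54 and Itga2 low at 4.64. Among Itgb1 knockouts, Pdgfrb (7.65) and Itgam (6.19) were high in replicate 1, Itgax (6.41) in replicate 2, Notch3 (7.66) in replicate 3 and Cdkal1 (8.33) in replicate 4, and Tns1 (5.61) was low in replicate 3. Itgb5 was low at 8.89 in control replicate 1.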

How the results depend on the processing

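The count of 0 genes for the interaction held under 9 of 10 alternative settings. With array weights 3 genes passed, Nlgn2 (1.02), Lhx2 (-1.04) and Tnfrsf1b (1.25). Leaving out 1 tumour gave 0 to 5 genes, with at least 1 in 4 of 19 omissions. These were 5 without control replicate 2 (Nlgn2, Heatr5a, Tnfrsf1b, Plekhh2 and Snord123), 2 without Itgb1 knockout replicate 1 (Snord123 and a clone), 1 without labelled double knockout replicate 5 (Chn1) and 1 without Itgb3 knockout replicate 3 (Prcp). Plekhh2, Snord123 and Chn1 were chosen after their values were seen. The smallest limma adjusted p ran from 0.0467 to 0.237 over the settings. Of 613 values of the named genes under other settings 609 kept their sign and side of the threshold, 3 passed, and Itgb1 reversed on linear intensities (3.39, an intensity difference). Of 1178 values with 1 tumour left out, 0 reversed. Most of the named genes were chosen by their interaction p in these data, and none of them passed in the main fit. A kept sign and side of the threshold was therefore likely in advance.

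The 55 genes between labelled double knockouts and controls became 100 with array medians set equal, 31 with quantile normalization, array weights or covariates, 27 without a filter, 26 with trend and robust eBayes and 28 with every probe set. Omissions gave 14 to 125, with 14, 16, 35 and 105 without control replicates 1, 2, 4 and 5, and 18, 14, 31 and 125 without labelled double knockout replicates 1, 2, 3 and 5. Omitting Itgb1 knockout replicates 2, 3 and 4 gave 33, 26 and 24, and Itgb3 knockout replicates 1 to 4 gave 24, 26, 24 and 26. The 1 gene of the Itgb1 knockouts became 0 with array weights and with covariates, and 0 to 1 in omissions (0 without control replicates 1, 3, 4 and 5 or Itgb1 knockout replicates 1, 2 and 4). The 3 genes against Itgb1 knockouts became 33 with array weights, 0 with covariates and 14 on linear intensities, and 0 to 24 in omissions. That count was 8 and 6 without control replicates 2 and 5, 15, 0, 1 and 0 without Itgb1 knockout replicates 1 to 4, and 0, 0, 24 and 8 without labelled double knockout replicates 1, 4, 5 and 6. The 408 genes against Itgb3 knockouts, 82.8% of them higher, became 1220 with array medians set equal (95.7% higher), 232 with quantile normalization, 1568 with array weights and 20 with covariates, and 56 to 459 in omissions. That count was 132 and 227 without labelled double knockout replicates 1 and 2, and 56, 119, 126 and 66 without Itgb3 knockout replicates 1 to 4. Why these counts moved was not tested. The alternatives for comparisons other than the interaction and labelled double knockouts against control were chosen after seeing the data. No paired analysis was possible because replicate numbers follow accession order and pair no tumours.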
